A study of Mus musculus with 3 samples.

Results

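The regions described here are those of the Runx genes Runx1, Runx2 and Runx3 in a count table of open chromatin from mouse skin squamous cell carcinomas. A region belonged to a Runx gene when that gene's body was the nearest protein-coding gene body to the region's midpoint, at most 50 kb away. This gave 91 of 95840 nuclear regions: 37 for Runx1, 39 for Runx2 and 15 for Runx3. Of the 91 regions, 70 lay inside a Runx gene body, 9 upstream and 12 downstream, and their median width was 689 bp. Chromatin was profiled by ATAC-seq, in which the Tn5 transposase cuts and tags accessible DNA, so a higher count marks a more open region.

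The tumours were induced with DMBA, a mutagen, and TPA, a promoter of skin tumours, in mice of mixed background. All tumours carried K14Cre, a Cre recombinase driven by the keratin 14 promoter of basal keratinocytes, and the YFP reporter RYFP. The control genotype was K14Cre;RYFP, and the Fat1 cKO genotype, K14Cre;Fat1fl/fl,RYFP, also carried conditional alleles of the protocadherin gene Fat1. Which Fat1 exons are removed is not stated, so Fat1 counts were not used to check the labels. Sorting for Epcam, an adhesion protein on epithelial cells, gave an Epcam+ library of a control tumour, an Epcam+ library of a Fat1 cKO tumour and an Epcam- library of a Fat1 cKO tumour, with 1 library in each of the 3 groups. The endings Epp and Epm of the sample titles were read as Epcam+ and Epcam-, and the titles of the 2 Fat1 cKO libraries share their beginning. With 1 library per group there is no replicate, no test and no p-value. All intervals are 95% intervals of counting error alone, and, with no molecular identifiers mentioned, PCR copies may make them too narrow.

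Runx proteins are transcription factors that bind DNA through a Runt domain, together with the shared partner Cbfb, and they activate or repress genes according to their cofactors. Runx1 is known for blood stem cells and is also expressed in hair follicle and skin tumour epithelium, Runx2 directs bone formation, and Runx3 acts in T cells and sensory neurons. Each gene has a distal promoter, called P1, and a proximal promoter, called P2, which give proteins with different first residues.

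The start sites in the RefSeq promoter table of build GRCm38.p6 set the places on which the results below turn. The table lists a P1 and a P2 start for Runx1 and for Runx3, and 1 start, the P1, for Runx2. The 250 bases before each start are shown because P1 and P2 differ in both sequence and accessibility. Capitals mark ACCACA, the core of the Runx binding motif, which was searched on both strands (ACCACA or TGTGGT).

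Runx1 P1, chr16:92826075-92826324, minus strand: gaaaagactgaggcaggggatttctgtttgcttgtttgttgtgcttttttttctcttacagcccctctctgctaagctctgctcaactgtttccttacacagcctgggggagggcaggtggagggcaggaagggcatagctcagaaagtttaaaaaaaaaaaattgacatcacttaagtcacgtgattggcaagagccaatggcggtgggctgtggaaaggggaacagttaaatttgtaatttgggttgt

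Runx1 P2, chr16:92697330-92697579, minus strand: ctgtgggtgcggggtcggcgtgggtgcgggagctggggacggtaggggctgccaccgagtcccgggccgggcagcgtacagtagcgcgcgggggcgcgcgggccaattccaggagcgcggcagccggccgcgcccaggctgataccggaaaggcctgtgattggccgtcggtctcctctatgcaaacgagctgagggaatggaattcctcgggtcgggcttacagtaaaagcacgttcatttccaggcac

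Runx2 P1, chr17:44814628-44814877, minus strand: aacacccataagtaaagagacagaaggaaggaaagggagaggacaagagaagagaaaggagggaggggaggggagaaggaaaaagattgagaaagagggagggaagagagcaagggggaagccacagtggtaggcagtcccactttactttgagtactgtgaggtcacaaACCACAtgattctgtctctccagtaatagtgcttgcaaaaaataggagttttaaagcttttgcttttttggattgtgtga

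Runx3 P1, chr4:135120395-135120644, plus strand: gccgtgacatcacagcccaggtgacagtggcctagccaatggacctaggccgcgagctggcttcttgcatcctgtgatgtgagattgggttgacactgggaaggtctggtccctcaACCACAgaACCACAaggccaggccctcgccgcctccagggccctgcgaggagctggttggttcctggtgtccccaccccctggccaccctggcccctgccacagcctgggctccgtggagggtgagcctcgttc

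Runx3 P2, chr4:135152295-135152544, plus strand: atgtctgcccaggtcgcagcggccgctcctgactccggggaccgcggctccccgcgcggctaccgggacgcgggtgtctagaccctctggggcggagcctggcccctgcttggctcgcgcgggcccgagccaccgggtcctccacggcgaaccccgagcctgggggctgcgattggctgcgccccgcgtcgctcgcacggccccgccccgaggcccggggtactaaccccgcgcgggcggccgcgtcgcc

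The 3 P1 windows share a pair of motif cores separated by 2 bases, ACCACAGAACCACA, and neither P2 window holds a core. The pair begins 28 bases after the start in Runx1, 23 bases after it in Runx2 and 134 bases before it in Runx3, as these 30-base stretches show.

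Runx1 P1, chr16:92826025-92826054, minus strand: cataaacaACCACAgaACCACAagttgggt

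Runx2 P1, chr17:44814583-44814612, minus strand: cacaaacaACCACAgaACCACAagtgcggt

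Runx3 P1, chr4:135120503-135120532, plus strand: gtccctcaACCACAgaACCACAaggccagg

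Among all 32851 promoter windows of 300 bases (250 before to 50 after a start), 16.8% hold at least 1 core, 1.81% at least 2, and 4 windows hold the pair. Those 4 windows are the 3 Runx P1 windows and that of Gm16225, a noncoding gene on the opposite strand whose window overlaps the Runx3 P1. Runx2 P1 has a further core upstream of its start, in capitals above. Those of Runx1 and the pair in Runx2 lie after the start and so outside the 250 bases shown. Over the same 300 bases the P1 windows have a GC content of 45.0% in Runx1, 45.3% in Runx2 and 63.7% in Runx3, with 2, 2 and 8 CpG dinucleotides. The P2 windows are richer, with 69.0% and 35 CpG in Runx1 and 77.3% and 45 CpG in Runx3. A match of letters is a description of sequence and does not show that a factor is bound.

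The libraries are named below by their count columns. Nuclear counts summed to 4335304 in the control Epcam+ column, 3812880 in the Fat1 cKO Epcam+ column and 5485317 in the Fat1 cKO Epcam- column, and a count of 0 allows up to 3 counts, which is 0.666, 0.820 and 0.545 CPM (counts per 1000000 nuclear counts after TMM scaling, which corrects library sizes for composition). Regions of Epcam itself stood at 67.7, 224 and 132 CPM in that order. The 10 epithelial markers summed to 433, 1507 and 1150 CPM in that order, and the 10 mesenchymal markers to 948, 653 and 405 CPM, so the Fat1 cKO Epcam- column was above the control Epcam+ column in epithelial and below it in mesenchymal signal. The part of this in the Runx results was not tested. The authors' peak calls run against the counts as well. Of 14 Runx regions with a peak call for Fat1 cKO Epcam- alone, 13 had their highest CPM in the control Epcam+ column. Of 8 with a call for control Epcam+ alone, 7 had it in the Fat1 cKO Epcam- column, while all 6 with a call for Fat1 cKO Epcam+ alone were highest under that name. Over all regions the same held for 9510 of 10758, 16893 of 18422 and 5158 of 5353, so the conflict is that of the whole table and not of the Runx genes. Which library each of the 2 conflicting names stands for is thus unsettled, every direction below is one between names, and the effect of swapping them is given with each comparison.

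The P1 regions of Runx1 and Runx3 were low in the Fat1 cKO Epcam- column, while its P2 regions were not low to the same degree. The Runx1 P1 region, chromosome 16 from 92823596 to 92826299, held 177 counts in the control Epcam+ column, 132 in the Fat1 cKO Epcam+ column and 35 in the Fat1 cKO Epcam- column, or 39.3, 36.1 and 6.36 CPM. The Runx1 P2 region, from 92696580 to 92698860, held 247, 256 and 346 counts in the same order, or 54.8, 70.0 and 62.9 CPM. The P1 region was low in the last of these libraries, and the P2 region lay between the others there. The P1 log2 ratio was -2.42 (-3.09 to -1.96) over the Fat1 cKO Epcam+ column and -2.54 (-3.19 to -2.10) over the control Epcam+ column. The P2 region stood at -0.15 (-0.39 to 0.08) and 0.20 (-0.04 to 0.44), intervals that include 0. With the median of regions within 5 Mb set to 0, P2 stood at -0.68 and -0.41, and with the chromosome median at -0.45 and -0.12, so it was lower as well on those scales. Between the 2 Epcam+ libraries the P1 region had a log2 ratio of -0.12 (-0.46 to 0.21) and the P2 region 0.35 (0.10 to 0.61), with the Fat1 cKO Epcam+ column higher.

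At Runx3 the P1 region, chromosome 4 from 135119939 to 135121045, held 67, 143 and 10 counts in the 3 columns in that order, or 14.9, 39.1 and 1.82 CPM. The Runx3 P2 region, from 135152158 to 135153197, held 49, 90 and 58 counts, or 10.9, 24.6 and 10.5 CPM. The P1 region was thus highest in the second library and almost empty in the last, whereas the P2 region had similar values in the first and the last. The P1 log2 ratio was -4.13 (-5.52 to -3.51) over the Fat1 cKO Epcam+ column and -2.76 (-4.16 to -2.06) over the control Epcam+ column. For P2 these ratios were -1.19 (-1.72 to -0.73) and -0.04 (-0.62 to 0.54). Both start sites were higher in the Fat1 cKO Epcam+ column than in the control Epcam+ column, P1 by 2.58-fold and P2 by 2.22-fold, in a pair where 5.67% of start-site regions were at least 2-fold higher. With the median of regions within 5 Mb set to 0, their log2 ratios were 0.87 and 0.65, both under 2-fold.

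The Runx2 P1 region, chromosome 17 from 44813880 to 44815320, held 54, 33 and 35 counts in the same order, or 12.0, 9.02 and 6.36 CPM. It lies also inside the gene Supt3, which overlaps the 5′ end of Runx2. Its log2 ratio of -0.48 (-1.23 to 0.23) between the Fat1 cKO Epcam- column and the Fat1 cKO Epcam+ column was within counting error. Over the control Epcam+ column it was -0.87 (-1.57 to -0.27).

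**Figure D1:**
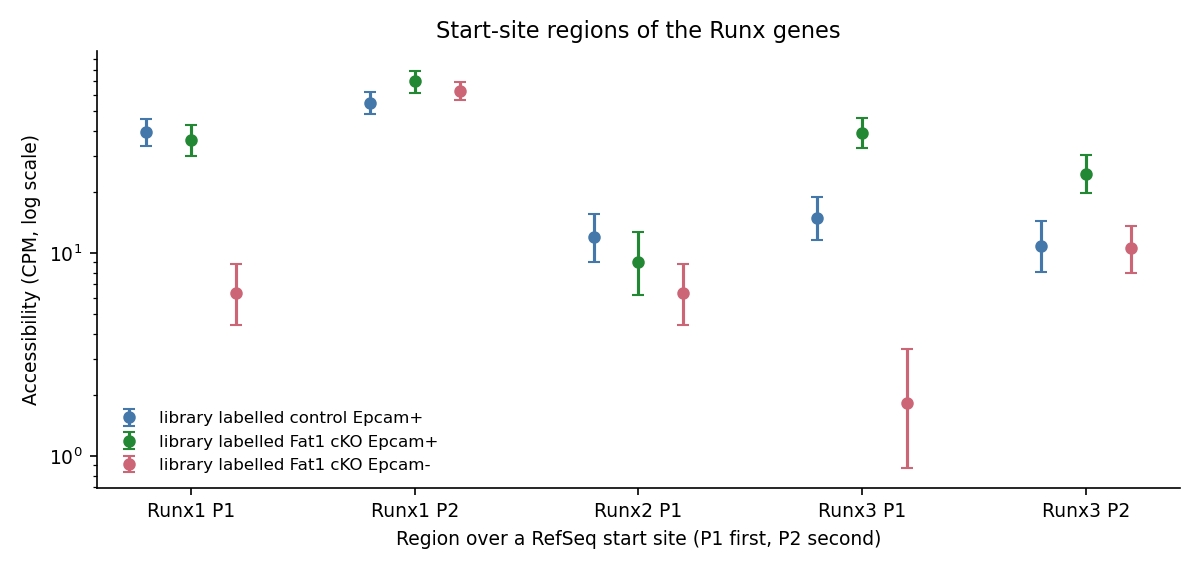
Accessibility in CPM (log axis) of the 5 Runx regions over a RefSeq start site, 1 point per library with its 95% exact Poisson interval. In the Fat1 cKO Epcam- column the P1 points stand at 6.36 CPM for Runx1 and 1.82 CPM for Runx3, below the points of the other libraries, and the P2 points at 62.9 and 10.5 CPM.

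The count at P1 divided by that at P2 within a library does not depend on library scaling. For Runx1 it was 0.717 (0.587 to 0.873) in the control Epcam+ column, 0.516 (0.415 to 0.639) in the Fat1 cKO Epcam+ column and 0.101 (0.0693 to 0.143) in the Fat1 cKO Epcam- column. For Runx3 it was 1.37 (0.932 to 2.02), 1.59 (1.21 to 2.09) and 0.172 (0.0786 to 0.340). Both genes had their lowest ratio in the same library, outside the intervals of the other libraries. Between the Fat1 cKO Epcam- and Fat1 cKO Epcam+ columns the ratio changed by a log2 of -2.35 (-2.98 to -1.74) in Runx1 and -3.19 (-4.40 to -2.12) in Runx3. Against the control Epcam+ column the changes were -2.82 (-3.44 to -2.23) and -2.97 (-4.25 to -1.82).

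Regions over a start site seldom differed as much. Of 10152 such regions of protein-coding genes with at least 20 counts in 1 of the Fat1 cKO Epcam- and Fat1 cKO Epcam+ columns, 4.29% were at least 2-fold lower in the former. In the same pair, 391 genes had separate measured regions over the first and last of those starts that overlap a region. Of these genes, 9.72% had the first at least 2-fold lower relative to the last. The difference was -2.27 in Runx1 and -2.94 in Runx3 on the log2 scale, and 5 and 2 of the 391 genes, these included, were as low or lower. For the pair with the control Epcam+ column the differences were -2.74 and -2.72, with 5 and 6 of 409 genes as low or lower and 12.0% at least 2-fold lower. The division of the regions by P1 and P2 was made after the values were seen. If the names of the count columns labelled control Epcam+ and Fat1 cKO Epcam- were exchanged, the low P1 counts would belong to the control Epcam+ library. The authors called the P1 regions of Runx1 and Runx3 as peaks in both Fat1 cKO columns, and not in the control Epcam+ column.

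Summed over all assigned regions, Runx3 varied most between the libraries, Runx1 less and Runx2 little. Runx1 summed to 463 CPM (444 to 483) in the control Epcam+ column, 531 CPM (508 to 555) in the Fat1 cKO Epcam+ column and 297 CPM (283 to 312) in the Fat1 cKO Epcam- column. Runx2 summed to 347 (330 to 365), 317 (299 to 335) and 356 CPM (341 to 372). Runx3 summed to 114 (105 to 125), 260 (244 to 277) and 57.1 CPM (51.0 to 63.8). For Runx1 and Runx3 the order was the same, with the Fat1 cKO Epcam+ column highest and the Fat1 cKO Epcam- column lowest. For Runx2 the interval of the first library overlapped those of both others. How often such intervals lie apart over all genes was not computed. Per kb of region the level of Runx3 went from 5.41 CPM in the lowest library to 24.6 CPM in the highest, that of Runx1 from 8.91 to 15.9 CPM and that of Runx2 from 11.5 to 13.0 CPM. In bulk samples, fewer cells with an open region and a less open region in each cell cannot be told apart.

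**Figure D2:**
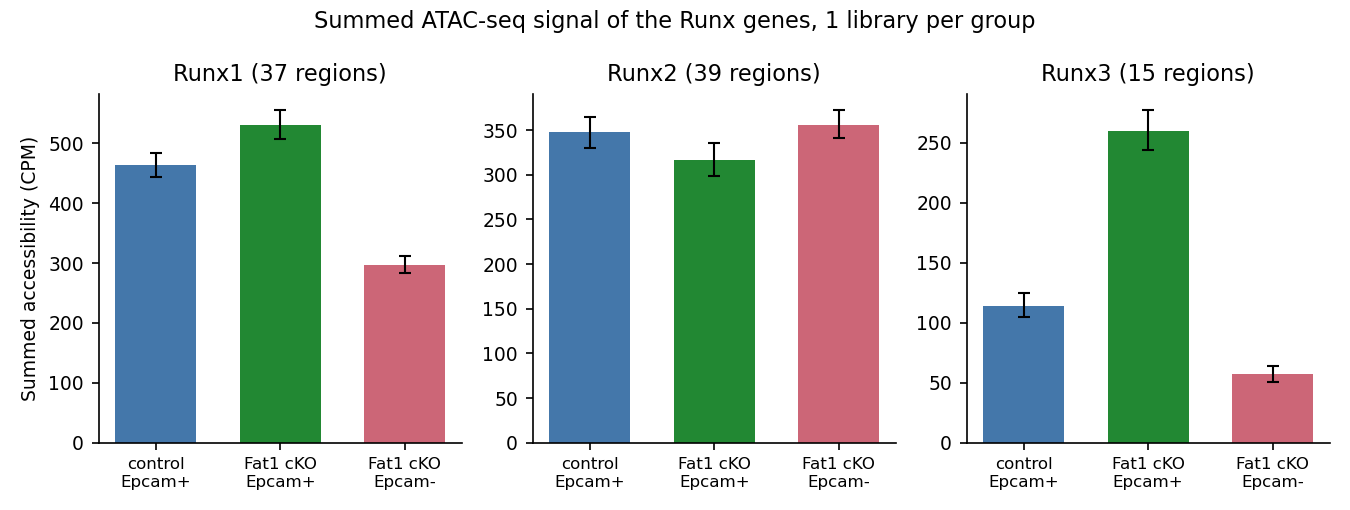
Summed accessibility in CPM of each Runx gene by library, with 95% exact Poisson intervals of the summed count. Runx3 reaches 260 CPM in the Fat1 cKO Epcam+ column against 114 and 57.1 CPM in the others, while the Runx2 bars lie between 317 and 356 CPM.

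The genotype comparison was between the 2 Epcam+ columns, with Fat1 cKO over control. Runx3 was 2.27-fold higher (log2 ratio 1.18, 1.03 to 1.34), and 7.22% of 15156 genes were 2-fold or more above and 4.18% below. Runx1 had a log2 ratio of 0.20 (0.11 to 0.29) and Runx2 one of -0.13 (-0.24 to -0.02). Around Runx3 other regions were higher as well, with a median of 0.50 over 470 regions within 5 Mb and 0.28 over chromosome 4. Set against these medians Runx3 stood at 0.69 and 0.90, under 2-fold. The difference was also under 2-fold as the median of its regions' log2 ratios, at 0.98.

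Of 67 Runx regions with at least 20 counts in 1 of these 2 libraries, 17 were higher and 6 lower by 2-fold or more, against 18.8% and 16.3% of all regions. The share of higher regions was 25.4%, near the background, and that of lower regions 8.96%. Regions that enter through 1 high library have to differ, so such counts are not counts over all 91 members. Among the 15 Runx3 regions, 13 had their highest CPM in the Fat1 cKO Epcam+ column, beside 17 of 37 in Runx1 and 6 of 39 in Runx2. That share was not computed over all regions, and some of the 15 had few counts. Of the 11 Runx3 regions measured here 7 were at least 2-fold higher and the median log2 ratio was 1.13, beside 0.02 over all regions. The furthest apart lay 34268 bp upstream of the Runx3 P1 start, chromosome 4 from 135086051 to 135086702. It held 9 counts in the control Epcam+ column, 117 in the Fat1 cKO Epcam+ column and 17 in the Fat1 cKO Epcam- column, so it was high in 1 library only, with a log2 ratio of 3.74 (3.03 to 5.17).

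Runx1 and Runx2 had single regions in both directions in this pair. In Runx1, 7 of 32 measured regions were higher and 2 lower by that size. A region 46741 bp upstream of P1, from 92872611 to 92873020, held 3, 20 and 0 counts in the libraries in the order above. A region 28087 bp beyond the 3′ end, from 92572750 to 92574007, held 76, 18 and 23 counts, which is 3.23-fold lower in the Fat1 cKO Epcam+ column than in the control Epcam+ column. In Runx2, 3 of 24 were higher and 4 lower. Its lowest region, intragenic at 44713267 to 44713993, had 38, 4 and 66 counts and was thus low in the Fat1 cKO Epcam+ column alone (log2 ratio -2.53, -4.89 to -1.47). With the 2 names exchanged, both libraries of the pair would be Fat1 cKO, with Epcam+ over Epcam-.

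The comparison by Epcam was within the Fat1 cKO genotype, with Epcam- over Epcam+. Runx3 was 4.53-fold lower (log2 ratio -2.18, -2.38 to -2.0), and 0.731% of 15590 genes were as low or lower. Runx1 was 1.79-fold lower (-0.84, -0.94 to -0.74) and Runx2 near even (0.17, 0.06 to 0.28). Of all genes 6.29% were lower and 9.45% higher by 2-fold or more. Regions within 5 Mb of Runx1 had a median of 0.53, and against it Runx1 stood at -1.37, past 2-fold. The neighbourhood of Runx3 had a median of -0.22, which leaves Runx3 at -1.96. Both directions held against the medians of chromosomes 16 and 4.

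Of 68 measured Runx regions 25 were lower by 2-fold or more in this pair (36.8%, beside 17.5% of all regions) and 7 higher by as much (10.3%, beside 25.0%). By gene, 14 of 30 measured regions were at least 2-fold lower in Runx1, 1 of 27 in Runx2 and 10 of 11 in Runx3. Most of the lower ones in Runx1 and Runx3 reached 20 counts only in the Fat1 cKO Epcam+ column, so they had to be lower in the other. The 7 higher ones were all in Runx2, where 7 of 27 is near the background. The median log2 ratio was -0.67 in Runx1, 0.27 in Runx2 and -1.95 in Runx3, beside 0.14 over all regions. The Runx3 region that was not 2-fold lower is intragenic, at 135158644 to 135159290, with 27 against 21 counts. The minimum of 20 counts left out 7, 12 and 4 regions of the 3 genes.

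Along Runx1 the low signal of the Fat1 cKO Epcam- column was deepest at P1 and between the promoters. The 9 regions between P1 and P2 summed to 73.4 CPM in the control Epcam+ column, 91.3 CPM in the Fat1 cKO Epcam+ column and 24.5 CPM in the Fat1 cKO Epcam- column. The 17 regions from P2 to the 3′ end summed to 233, 262 and 155 CPM. The log2 ratio of the last over the second library was -1.88 (-2.19 to -1.60) between the promoters and -0.76 (-0.89 to -0.62) beyond P2. It was -1.41 (-1.93 to -0.98) over 3 upstream regions and -0.18 (-0.49 to 0.13) over 6 downstream ones. Of the measured regions, 5 of 6 between the promoters and 5 of 14 beyond P2 were at least 2-fold lower, beside 17.5% of all measured regions. Most of the lower ones in both stretches reached the minimum count only in the Fat1 cKO Epcam+ column. They thus had to be lower in the other, and these shares cannot rank the stretches. The summed ratios take in all regions of a stretch. Between the promoters the region from 92738117 to 92739370 held 96, 64 and 12 counts, low in the last library only. Beyond P2 the gene's second most open region, from 92620619 to 92621951, held 228, 163 and 176 counts, a log2 ratio of -0.47 (-0.79 to -0.16).

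Runx3 was lower along its whole length. The log2 ratio was -2.05 (-2.33 to -1.81) over its 5 upstream regions without that of P1, -2.05 (-2.96 to -1.44) over 2 regions between the promoters, -1.82 (-2.50 to -1.30) over 3 regions beyond P2 and -2.67 (-3.54 to -2.13) over 3 downstream ones. Its most open region lies 40201 bp upstream of P1, from 135079777 to 135081111, and held 138, 190 and 72 counts (30.6, 52.0 and 13.1 CPM). A region 13488 bp beyond the 3′ end, from 135190949 to 135192007, held 29, 88 and 13 counts. Each of these followed the order of the gene sum. Most genes around Runx3 were lower in this comparison as well, with log2 ratios between -1.42 and 0.28.

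Runx2 differed at single regions of its body, while its sum was near even. The region from 44713267 to 44713993 held 66 counts in the Fat1 cKO Epcam- column against 4 in the Fat1 cKO Epcam+ column (log2 ratio 3.02, 2.03 to 5.37). The region from 44584487 to 44585202 held 13, 11 and 78 counts in the libraries in the order above, so only the last was high (2.08, 1.32 to 3.30). The 13 regions nearest the 3′ end, within the last of 3 equal stretches of the gene, summed to 93.6, 109 and 134 CPM, a log2 ratio of 0.29 (0.11 to 0.47). The 3 most open Runx2 regions differed by under 2-fold in this comparison. That from 44776739 to 44778086, which covers the start of Supt3, held 239, 168 and 305 counts. That near the 3′ end, from 44500244 to 44500983, held 184, 149 and 207 counts, with intervals that include 0 in each pair. The other, from 44737444 to 44738635, held 159, 120 and 93 counts and was 1.92-fold lower. The divisions along the genes were chosen after the values were seen. With the 2 names exchanged, the comparison would be control Epcam+ over Fat1 cKO Epcam+ cells.

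**Figure D3:**
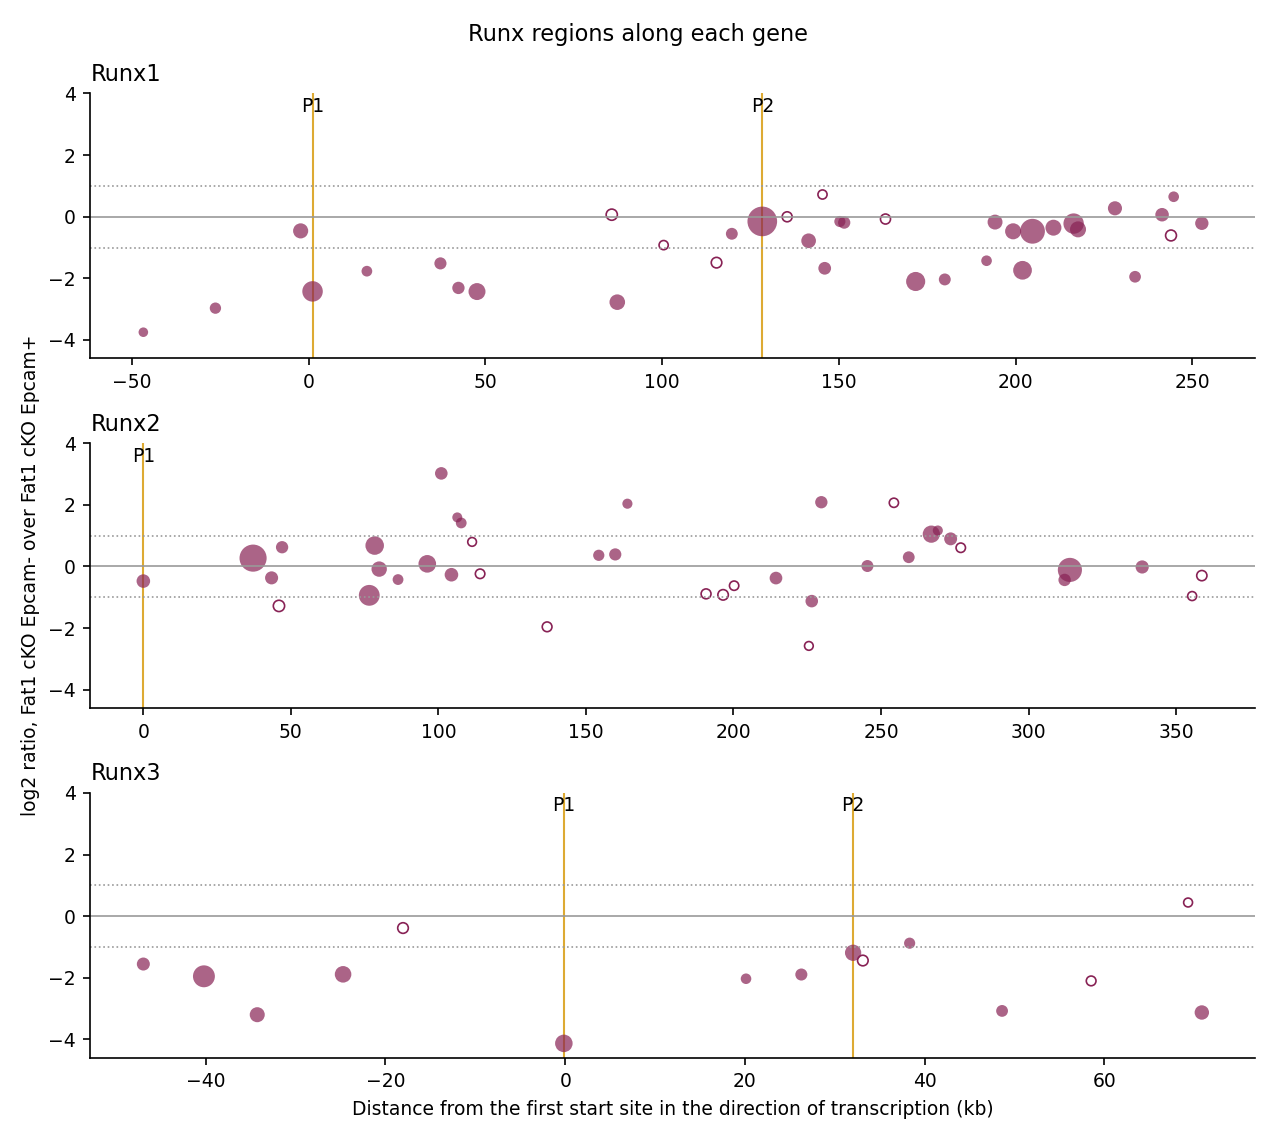
The log2 ratio of each Runx region between the Fat1 cKO Epcam- and Fat1 cKO Epcam+ columns against its distance in kb from the P1 start. Point area grows with the mean CPM, open points had under 20 counts in both libraries, dotted lines mark 2-fold and vertical lines the start-site regions. The Runx1 P1 region lies at -2.42 and its P2 region at -0.15, Runx3 regions lie low on both sides of P1 (down to -4.13 at P1), and Runx2 regions scatter up to 3.02.

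The remaining comparison had Fat1 cKO Epcam- over control Epcam+. It shares its libraries with the other comparisons, so its values are not independent of them. Runx1 was 1.56-fold lower (log2 ratio -0.64, -0.74 to -0.55), Runx2 had an interval that includes 0 (0.04, -0.06 to 0.13) and Runx3 lower by just under 2-fold (-1.0, -1.21 to -0.80). Of all genes 6.11% were lower and 12.4% higher by 2-fold or more. Chromosome 4 had a median of 0.52 and chromosome 16 one of 0.31 in this pair, and against these Runx3 stood at -1.51 and Runx1 at -0.95. Within the Runx3 body alone the ratio was -0.56.

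Of 66 measured Runx regions 21 were lower by 2-fold or more (31.8%, beside 19.3% of all regions) and 10 higher (15.2%, beside 28.4%). The lower ones were 12 of 28 in Runx1, 4 of 29 in Runx2 and 5 of 9 in Runx3. Most of those in Runx1 and Runx3 reached the minimum count only in the control Epcam+ column, so they had to be lower in the other. The lowest in Runx1 was the region between the promoters named above, from 92738117 to 92739370, at 96 against 12 counts (-3.05, -4.29 to -2.42). The lowest in Runx2, from 44768431 to 44768851, held 45, 12 and 6 counts (-2.77, -4.71 to -1.96). The highest in Runx2, from 44545203 to 44545543, held 4, 8 and 30 counts (2.15, 1.12 to 4.59). In the 3′ stretch of Runx2 just described, 5 of 10 measured regions were at least 2-fold higher. Most of these 5 reached the minimum count only in the Fat1 cKO Epcam- column, so this share cannot show that the stretch was higher. The summed log2 ratio, which takes in all regions of the stretch, was 0.51 (0.34 to 0.69). An exchange of the 2 column names would turn these signs.

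**Figure D4:**
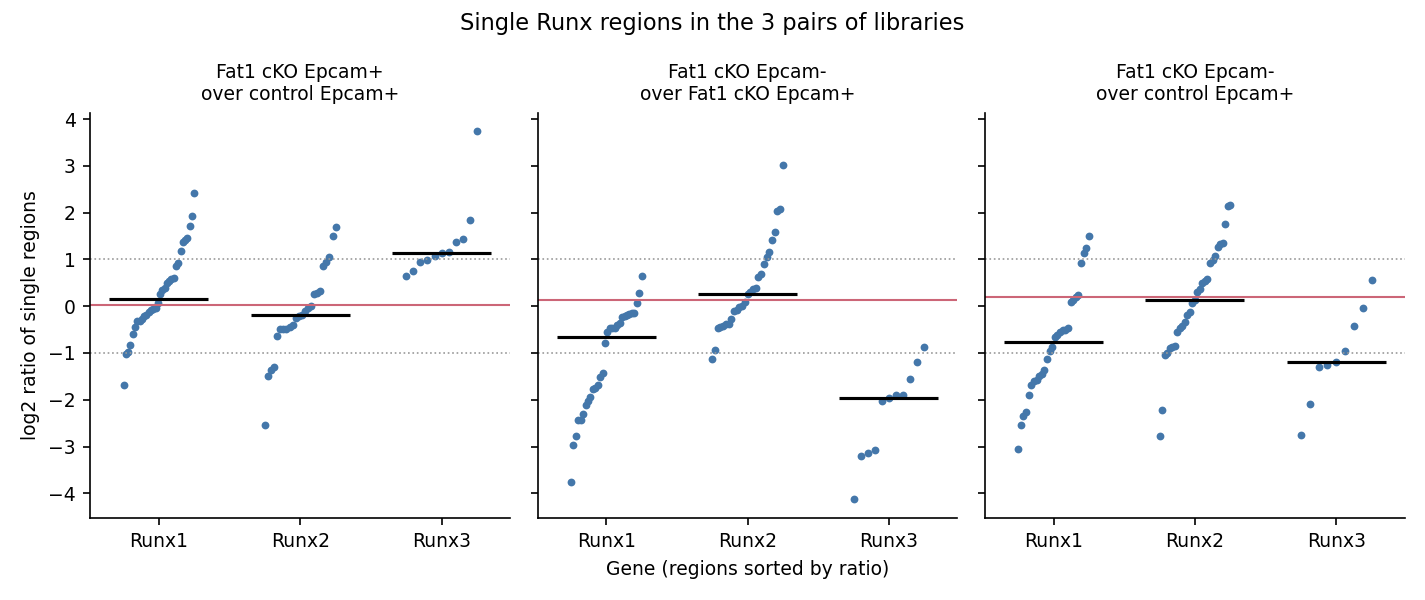
The log2 ratios of single Runx regions that reached 20 counts in either library, sorted within each gene, for the 3 pairs of libraries. Black bars are medians over the regions shown, the red line is the median of all measured regions and dotted lines mark 2-fold. Runx3 has medians of 1.13, -1.95 and -1.20 in the 3 panels. The Runx2 medians stay near the red line, and single regions of both Runx1 and Runx2 spread widely.

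Among cofactors of Runx proteins 1 gene differed by 2-fold in any comparison. Cbfb, the shared partner, summed to 82.1 CPM in the control Epcam+ column, 69.7 CPM in the Fat1 cKO Epcam+ column and 64.5 CPM in the Fat1 cKO Epcam- column. Its log2 ratios were -0.23 (-0.47 to -0.0012), -0.11 (-0.35 to 0.13) and -0.34 (-0.56 to -0.13) in the 3 comparisons in the order above. Of 17 cofactor genes, all measured, 0 were 2-fold apart in the genotype comparison and 1 was in each of the others, with list medians of 0.08, -0.09 and -0.02 beside 0.05, 0.00 and 0.07 over all genes. That gene was Tle4, a Groucho corepressor that Runx proteins recruit. It summed to 86.7, 70.3 and 219 CPM and was 3.10-fold higher (log2 ratio 1.63, 1.44 to 1.84) in the comparison by Epcam. Runx1t1, the corepressor gene fused to RUNX1 in leukaemia, stood at 21.5, 10.9 and 15.3 CPM. Of all genes, 7.22%, 9.45% and 12.4% were higher by 2-fold or more in the 3 comparisons, and 4.18%, 6.29% and 6.11% lower.

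Known target genes differed in both directions. Of 16 genes described as Runx targets in blood and epithelium, 12 had regions. Of these, 2 were at least 2-fold higher in the genotype comparison, Myb (2.43-fold) and Itgae (2.15-fold, on 35 against 19 counts), both higher in the Fat1 cKO Epcam+ column. In the comparison by Epcam, 1 was higher and 2 lower. Il2rb, a cytokine receptor subunit gene, was 3.58-fold lower at 39.3, 45.4 and 12.4 CPM in the 3 libraries, Itgae 2.25-fold lower, and Lef1, a Wnt effector gene, 2.22-fold higher. In the remaining comparison 1 was higher, Myb, and 1 lower, Il2rb. Socs3, an inhibitor of cytokine signalling, stood at 249, 301 and 186 CPM. List medians were 0.24, -0.23 and -0.05, beside 0.05, 0.00 and 0.07 over all genes. Among all genes 7.22%, 9.45% and 12.4% were at least 2-fold higher in the 3 comparisons, and 4.18%, 6.29% and 6.11% lower.

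Of 14 bone and cartilage targets 13 had regions, and 12, 12 and 13 were measured in the 3 comparisons. In the genotype comparison Alpl, the alkaline phosphatase gene, was 2.63-fold and Bglap, the osteocalcin gene, 2.05-fold higher, and Ibsp, the bone sialoprotein gene, 3.00-fold lower. Bglap had 25 against 14 counts and Ibsp 10 against 41, so both rest on few counts. In the comparison by Epcam Spp1, the osteopontin gene, was the 1 member 2-fold apart, 2.50-fold lower at 54.1, 47.0 and 18.5 CPM. In the remaining comparison Spp1 and Ibsp were lower and Bglap higher. List medians were 0.13, -0.34 and -0.15, beside 0.05, 0.00 and 0.07 over all genes. The shares of all genes were again 7.22%, 9.45% and 12.4% higher and 4.18%, 6.29% and 6.11% lower. All lists are described by their counts and medians, with no test.

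Runx1 and Runx3 are also blood genes, so markers of immune cells were read beside them. Of 16 markers 9 had an assigned region, and these summed to 160 CPM in the control Epcam+ column, 156 CPM in the Fat1 cKO Epcam+ column and 129 CPM in the Fat1 cKO Epcam- column. Cd4, Cd8a, Cd79a, Adgre1, Lyz2, Ncr1 and Cpa3 had no assigned region. In the comparison by Epcam 0 of 8 measured immune markers were 2-fold apart, beside 9.45% of all genes higher and 6.29% lower. Their median log2 ratio was -0.39, on the lower side like Runx1 and Runx3, beside 0.00 over all genes. The epithelial and mesenchymal lists were lower still in that comparison, with medians of -0.435 and -0.63. In the genotype comparison 1 of 9 was at least 2-fold lower, the myeloid gene Itgax, beside 4.18% of all genes. The median was -0.08. In the remaining comparison 2 of 9 were lower, Itgax at -1.76 and Itgam at -1.12, beside 6.11% of all genes. The median was -0.08. Both genes rest on few counts, 38, 14 and 12 for Itgax and 38, 22 and 20 for Itgam in the 3 libraries. Single markers differed in course: the pan-leukocyte gene Ptprc stood at 49.9, 47.3 and 47.3 CPM, and Csf1r, a macrophage receptor gene, at 20.6, 18.3 and 11.1 CPM. In the comparison by Epcam 2 of 10 epithelial and 2 of 10 mesenchymal markers were 2-fold lower, and 1 of 5 endothelial markers, Tie1, was 2.66-fold higher. The 5 endothelial markers summed to 159, 183 and 173 CPM, mostly from Pecam1 (98.0, 142 and 99.1 CPM), and their median log2 ratios were -0.53 in the genotype comparison and 0.76 in that by Epcam. Their part in the Runx results was not tested.

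By likeness of pattern over the 3 libraries, the distance between centred log2 CPM values was compared for 5290 other genes that reached 100 counts in a library over 5 or more regions. The nearest to Runx3 was Npsr1, a neuropeptide receptor gene, at a distance of 0.06 with 25.1, 56.1 and 11.6 CPM, followed by Itprid1 (0.14) and Tnip3 (0.18). The nearest to Runx1 were Uggt1, Phex and Cx3cl1 (0.02, 0.02 and 0.03). Phex is in the bone list too. With 3 libraries many genes share a pattern closely.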

How the data were processed

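ATAC-seq was done on 3 libraries of sorted mouse tumour cells, 1 per group. The authors deposited raw counts over 95842 merged regions, with a yes or no peak call for each column. Per the submitters' processing notes, build mm10 (GRCm38) was used with MACS2 2.1.0.20151222, Picard, SAMtools and Bowtie2 2.2.6, whose roles are not stated there. The sources used here do not give the counting tool, the filters, the peak threshold or any shift of cut sites for Tn5. Coordinates are as the deposited table gives them.

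The 2 mitochondrial regions were left out. Genes came from a RefSeq table of GRCm38.p6, start sites and promoter sequences from RefSeq promoters of the same build, and all 3 Runx genes matched. Ties between overlapping gene bodies (2 regions, Runx2 with Supt3) went to the Runx gene. TMM factors came from edgeR 4.0.16 in R 4.3.3, and log2 ratios used its formula with a prior count of 2, in Python 3.11.15. A feature was measured with at least 20 counts in 1 of 2 libraries and called at 2-fold. Ratios of counts have Clopper-Pearson intervals, levels exact Poisson intervals, and changes of the P1 over P2 ratio exact conditional intervals. The computation was tested on simulated data.

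Of the regions, the 3 most open per gene, those near gene ends and the 2 highest and 2 lowest per gene and pair could be named, and of the lists Cbfb and up to 3 highest and 3 lowest genes per pair. The P1 and P2 regions, some further single regions and, among the listed genes, Socs3, Ptprc, Csf1r and Pecam1 were named after their values were seen. The members and lists were chosen with earlier results of these data known. The genes nearest in pattern to Runx2 are not reported here.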

Additional observations from a re-analysis of the deposited data

How the results depend on the processing

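Values are in the order Fat1 cKO Epcam+ over control Epcam+, Fat1 cKO Epcam- over Fat1 cKO Epcam+, and Fat1 cKO Epcam- over control Epcam+, and are log2 ratios of gene sums unless said to be region counts. Of 96 alternative gene ratios 68 stayed within the counting interval of the reported value, and of 42 alternative region counts 32 stayed within 1.5 times. Only Runx3 in the first 2 comparisons was past 2-fold, and it kept its sign under these alternatives. Runx2 changed sign under some of them in the last 2 comparisons. The cause of the moves was not tested. A median within 5 Mb set to 0 gave Runx1 -1.37 and -1.25 in the last 2 comparisons, Runx2 -0.27 in the first and -0.22 in the last, and Runx3 0.69, -1.96 and -1.22. It gave 11 higher regions in the first comparison, and 6 higher and 33 lower in the last. A chromosome median of 0 gave Runx1 -1.14 and -0.95 and Runx2 0.055 and -0.16 in the last 2 comparisons, and Runx3 0.90 in the first and -1.51 in the last. The median over regions gave Runx1 -0.55 and Runx2 -0.017 in the second, and Runx3 0.98 and -1.90 in the first 2. With the midpoint within 1 kb of a gene end, where Runx1 has no region, Runx2 stood at -0.39, -0.48 and -0.87 and Runx3 at 1.37, -4.13 and -2.76, each on 1 region. Regions over 1 kb away gave Runx3 -1.99 in the second, and regions inside the gene body gave it -1.64 and -0.56 in the last 2. Total nuclear counts gave Runx1 0.081 and Runx2 -0.25 in the first. A minimum of 50 counts, which measures fewer regions, left 6, 3 and 6 higher and 1, 12 and 12 lower regions, and no minimum gave 10 lower in the first. An exchange of the 2 count column names, added after seeing the data, gives Runx1 0.84, -0.20 and 0.64, Runx3 2.18, -1.18 and 1.0, and 21 higher and 10 lower regions in the last comparison. No paired analysis was possible because each group has 1 library. Depth limits single regions most: the Runx3 P1 value rests on 10 counts in 1 library.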
